A study of Mus musculus with 9 samples.

Results

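The immediate early genes of the Fos, Jun and Egr families, with the small early-response genes Ier2 and Ier3, were followed in mouse embryonic stem cells with and without Xpc. The set was defined by gene name and held 10 genes, Fos, Fosb, Fosl1, Jun, Junb, Jund, Egr1, Egr2, Ier2 and Ier3, out of 35019 gene names on the array. All 10 had a probe and 9 could be tested. The exception was Egr2, whose probe did not lie well above background on all 3 arrays of any group.

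RNA was compared between 3 groups of cells of a line whose Xpc alleles are flanked by loxP sites, so that Cre recombinase can remove them. Xpc encodes the damage sensor of global nucleotide excision repair and is also known as a coactivator of Oct3/4 and Sox2. The floxed group (titled Xpc_f/f-Tx) kept the gene, the induced group (Xpc_f/f+Tx_day4) was taken 4 days after its deletion, and the null group (Xpc_KO) was a subclone that lacked it. Each group had 3 arrays. The labels do not spell out Tx or say what drives Cre, and no group was induced without losing Xpc. The null group is described as subcloned, so features of the subclone and loss of Xpc cannot be told apart. The labels leave unsaid whether replicates came from separate cultures, so p-values measure the spread between these samples, which may be technical.

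Immediate early genes are switched on within minutes of a growth factor, stress or other stimulus, without new protein synthesis, and most of their mRNAs are short-lived. Fos and Jun proteins pair through leucine zippers to form the transcription factor AP-1, and Egr proteins are zinc finger factors that bind GC-rich sites. In embryonic stem cells the FGF and ERK signal that drives exit from self-renewal also induces Egr1, Fos and their relatives. Ier2 and Ier3 encode small proteins that are not members of these families, Ier3 being known as a regulator of survival under stress.

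Promoter sequence was read from the RefSeq table of GRCm38.p6 over the 250 bases before each listed transcript start. Of the 10 genes 7 had an entry, with 11 windows in all, and Fosl1, Egr1 and Ier2 were not matched. The windows were searched on both strands for the CArG box bound by serum response factor (CC, then 6 of A or T, then GG), the AP-1 site TGANTCA, the CREB site TGACGTCA, the Ets site CCGGAAG, the Egr site GCGNGGGCG and the TATA element TATAAA. Fos and Ier3 are printed because, of the tested genes with a window, they are those whose null arrays lay above all others, with the motif found in capitals, for Fos at chr12:85473640-85473889 and for Ier3 at chr17:35821463-35821712, both on the plus strand.
Fos: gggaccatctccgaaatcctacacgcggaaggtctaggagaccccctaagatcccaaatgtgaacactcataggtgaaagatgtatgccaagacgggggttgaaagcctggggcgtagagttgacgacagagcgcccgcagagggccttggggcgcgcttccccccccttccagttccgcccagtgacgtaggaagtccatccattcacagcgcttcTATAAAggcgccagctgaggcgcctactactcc
Ier3: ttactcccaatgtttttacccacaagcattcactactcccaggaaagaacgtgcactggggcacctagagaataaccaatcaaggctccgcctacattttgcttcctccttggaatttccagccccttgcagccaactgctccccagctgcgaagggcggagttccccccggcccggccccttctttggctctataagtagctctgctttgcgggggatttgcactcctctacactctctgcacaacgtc
Fos held TATAAA 33 bases before its start, an element found in 12.4% of the 32851 windows in the table, and Ier3 held none of the 6 motifs. The other matches are shown because they fall on sites that immediate early factors bind, at chr7:19310077-19310105 (minus strand) for Fosb and chr10:67537787-67537816 (plus strand) for Egr2.
Fosb: tgacgcaagcGCGGGGGCGggtcccggag
Egr2: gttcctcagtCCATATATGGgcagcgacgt
Fosb carried the Egr site 50 bases before its start, a motif found in 4.7% of all windows. Egr2 carried a CArG box in 4 of its 5 windows, between 72 and 133 bases before the start. Several of these windows overlap, so the 4 matches are 2 distinct sites, and 1.47% of all windows held the motif. TGANTCA (6.75% of all windows), TGACGTCA (1.55%) and CCGGAAG (6.91%) were in none of the 11 windows. A match describes letters only, and no match says only that these letters are not in the window.

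Each array gave 62976 spots, between 47.4% and 57.9% of spots well above background, and none saturated. Values below are log2 signal relative to the 75th percentile of the array, so 0 is the level of that percentile. They compare one gene between arrays and do not compare genes with each other. The Xpc probe lay between 0.17 and 0.59 in floxed, -1.09 and -0.67 in induced and -1.53 and -0.85 in null arrays. Whether it lies in the deleted segment is not known. By limma with adjustment over all genes the change of Xpc passed for null against floxed cells (-1.68, adjusted p = 0.00608) and did not pass for induced against floxed cells (-1.38, adjusted p = 0.224), where it passed without floxed array 3 (-1.51, adjusted p = 0.0317). Floxed array 3 stood apart from the others of its group. On the first principal component of 19913 genes, which held 47.3% of the variance, it lay at 24.1, against -32.6 and -33.9 for floxed arrays 1 and 2 and 29.1 to 36.2 for null arrays. Floxed array 3 and null array 3 shared slide 2, floxed arrays 1 and 2 were on slide 1, and the other 5 arrays were on slide 3. The 6 stem cell markers Pou5f1, Sox2, Nanog, Klf4, Esrrb and Zfp42 were above background on all 9 arrays, and none passed by limma in any comparison. All 6 lay lower in null cells, by a median of -0.30 against floxed and -0.40 against induced cells. At an unadjusted limma p under 0.05 stood 1 and 2 of them, beside 22.9% and 23.8% of all genes.

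**Figure D1:**
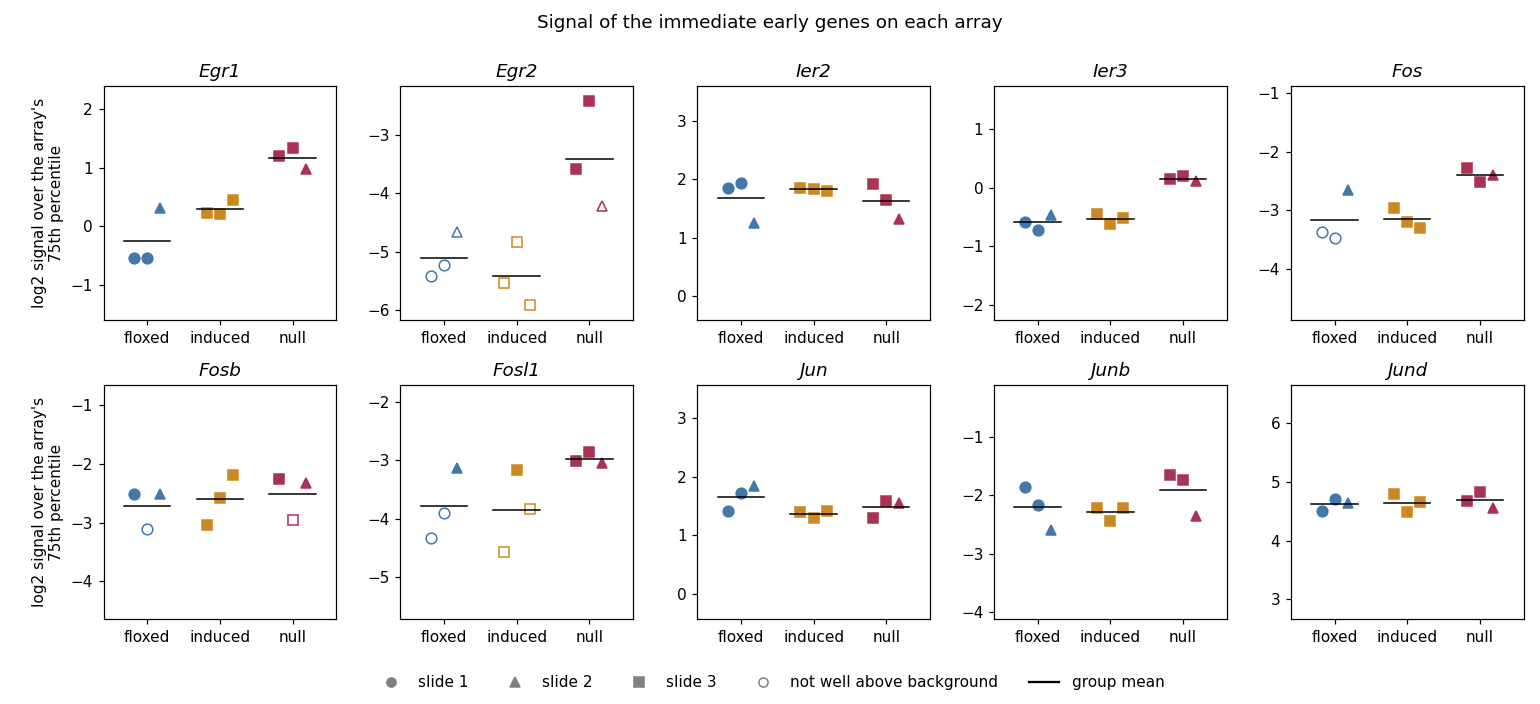
Log2 signal relative to the array's 75th percentile (vertical axis) for each of the 10 genes on each array, by group, with the group mean as a line, slides as marker shapes and open markers for spots not well above background. Every panel spans the same number of log2 units. The null arrays lie above all others for Egr1 (0.98 to 1.34) and Ier3 (0.11 to 0.19), and the floxed array on slide 2 lies above the other floxed arrays for Egr1 and Fos.

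Egr1, the zinc finger factor that is the best-known transcriptional readout of ERK signalling, was highest in null cells. Floxed arrays 1 to 3 gave log2 signals of -0.54, -0.55 and 0.31, induced arrays 0.22, 0.22 and 0.45, and null arrays 1.19, 1.34 and 0.98. All null arrays lay above all others, and floxed array 3 lay among the induced arrays. The group means were -0.26 ± 0.49 (SD, n = 3), 0.30 ± 0.13 (n = 3) and 1.17 ± 0.18 (n = 3). Null cells were 2.70-fold above floxed cells (log2 difference 1.43, SE 0.22, limma adjusted p = 0.0215), which passed the threshold of 0.05. Against induced cells the difference was 0.88 (1.84-fold, SE 0.22, limma adjusted p = 0.0801), and it did not pass although the groups did not overlap. Induced and floxed cells differed by 0.56 (SE 0.22, limma adjusted p = 0.773), with overlapping values.

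The Egr1 calls depended on floxed array 3. Without it the limma difference between null and floxed cells was 1.71 (adjusted p = 0.000178), that between null and induced cells passed (0.88, adjusted p = 0.00257) and so did that between induced and floxed cells (0.84, adjusted p = 0.0378). Between the paired arrays of slide 2, null exceeded floxed by 0.68. On slide 3, null arrays 1 and 2 exceeded the mean of the induced arrays by 0.97. A limma fit with slide as a fixed block repeats these within-slide differences and is no separate check. Its null against floxed difference rests on the single pair of slide 2 and did not pass (0.68, adjusted p = 0.217). Null against induced cells rests on slide 3 and passed (0.97, adjusted p = 0.00288). No slide held both induced and floxed arrays, so their difference, which changed sign (-0.29, adjusted p = 0.505), follows from the other differences.

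Egr2, the second zinc finger member and a gene whose promoter carries the CArG box printed above, was detected on null arrays 1 and 2 alone. Its signal was -3.60, -2.43 and -4.23 in null arrays 1 to 3, the third not well above background. In floxed arrays it measured -5.42, -5.23 and -4.67 and in induced arrays -5.53, -4.83 and -5.91, none of them well above background. With the other groups raised to the lowest detected signal of each array, the null mean of -3.42 was 1.67-fold above the induced group (measured mean -5.42). It was 1.06-fold above the floxed group (measured mean -5.11). That null mean includes array 3, whose signal was not well above background, so these folds are not lower bounds. They carry no test, because the probe was not kept for the fit.

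Ier3 showed the tightest replicates of the 10 genes and a step in null cells. The signal was -0.59, -0.72 and -0.47 in floxed, -0.45, -0.63 and -0.52 in induced and 0.15, 0.19 and 0.11 in null arrays. Induced and floxed arrays overlapped, and all null arrays lay above both. Its SD within groups was 0.092, and 11.5% of all genes tested had a smaller one, the median gene standing at 0.177. Null cells exceeded floxed cells by 0.74 (1.67-fold, SE 0.098, limma adjusted p = 0.00931) and induced cells by 0.68 (1.61-fold, SE 0.098, limma adjusted p = 0.0155). Induced cells differed from floxed cells by 0.06 (95% confidence interval -0.16 to 0.28, limma adjusted p = 0.983).

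Within slides the Ier3 difference had much the same size, 0.58 on slide 2 and 0.70 on slide 3. Without floxed array 3 null cells exceeded floxed cells by 0.80 (limma adjusted p = 0.000904). With slide as a fixed block the difference between null and floxed cells was again that of the single slide 2 pair, 0.58. It no longer passed by limma (adjusted p = 0.222). The calls were also lost when 1 of several other arrays was left out: for null against floxed cells, floxed array 1 (0.74, limma adjusted p = 0.0505), floxed array 2 (0.68, limma adjusted p = 0.0514) or null array 2 (0.72, limma adjusted p = 0.0545). For null against induced cells they were lost without any induced array or without null array 1 or 2, at limma adjusted p between 0.0501 and 0.0872. The Egr1 call of null against floxed cells behaved alike and was lost without floxed array 1 or 2 or null array 1 or 2, at differences of 1.29 to 1.42 and limma adjusted p between 0.0757 and 0.0939.

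Ier2, an early-response gene induced by serum alongside Fos, did not follow Ier3. Its signal was 1.85, 1.94 and 1.25 in floxed, 1.86, 1.84 and 1.80 in induced and 1.92, 1.65 and 1.32 in null arrays. The lowest arrays were the pair on slide 2, floxed 3 and null 3, which differed by 0.06. Null cells differed from floxed cells by -0.05 (95% confidence interval -0.51 to 0.40, limma adjusted p = 0.900) and from induced cells by -0.21 (95% confidence interval -0.66 to 0.25, limma adjusted p = 0.557).

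Fos, the founding AP-1 partner of Jun, had a faint signal that was highest in null arrays. Floxed arrays 1 to 3 measured -3.37, -3.47 and -2.65, induced arrays -2.96, -3.21 and -3.30, and null arrays -2.28, -2.52 and -2.40. Floxed arrays 1 and 2 were not well above background, and floxed array 3 was nearer to the null arrays than to the other floxed arrays. All null arrays lay above all others. Null cells exceeded floxed cells by 0.76 (SE 0.21, limma adjusted p = 0.0926) and induced cells by 0.75 (SE 0.21, limma adjusted p = 0.0924), and neither difference passed.

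Fos is the one gene of the set whose probe was printed at 10 spots on every array, which gives a measure of the error within an array. Over the 8 to 10 spots used, the SD lay between 0.11 and 0.26, and floxed array 3 lay 0.77 above the mean of floxed arrays 1 and 2. Without floxed array 3, null cells exceeded floxed cells by 1.02 (limma adjusted p = 0.00130) and induced cells by 0.75 (limma adjusted p = 0.00440), and both then passed. On slide 2 the null array exceeded the floxed array by 0.25, and on slide 3 null exceeded induced arrays by 0.75. With slide as a block the limma difference between null and induced cells also passed (fixed 0.75, adjusted p = 0.0130, and random 0.72, adjusted p = 0.0354). That between null and floxed cells did not (fixed 0.25, adjusted p = 0.756, and random 0.55, adjusted p = 0.360). The fixed-block differences are the within-slide ones again, the latter resting on the single pair of slide 2.

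The size of the Fos difference depended on how background was handled. With normexp correction null cells exceeded floxed cells by 0.30 and induced cells by 0.34, and with the deposited matrix, which holds uncorrected mean signals, by 0.30 and 0.32, none of which passed by limma (adjusted p between 0.0927 and 0.124).

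**Figure D2:**
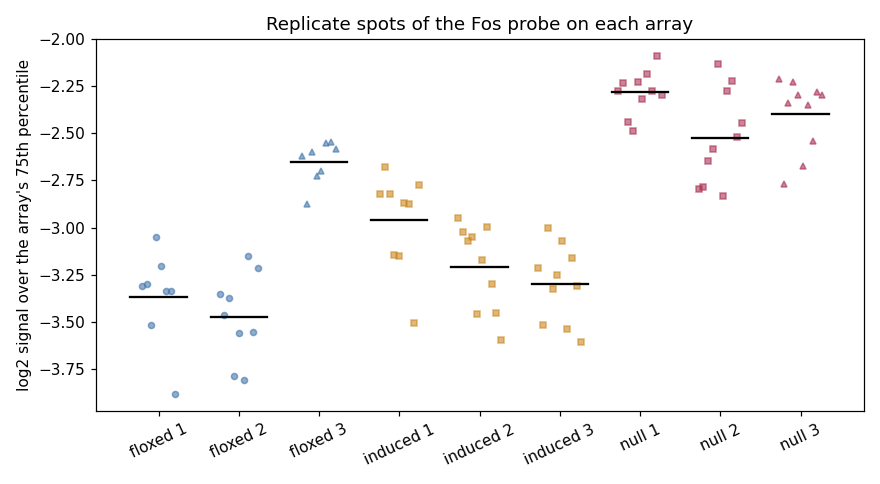
Log2 signal of each replicate spot of the Fos probe (points; vertical axis, relative to the array's 75th percentile) on each of the 9 arrays, with the array mean as a line and marker shape giving the slide. Spots of the null arrays centre between -2.52 and -2.28, those of floxed array 3 at -2.65, and those of floxed arrays 1 and 2 at -3.37 and -3.47.

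The remaining Fos proteins, Fosb and Fosl1 (Fra-1), pair with Jun proteins in the same way. Fosl1 was close to background, with -4.34, -3.90 and -3.12 in floxed, -4.56, -3.17 and -3.83 in induced and -3.01, -2.87 and -3.05 in null arrays. It was well above background on 1 floxed, 1 induced and all 3 null arrays, so it entered the test through the null group, where it was high. The null arrays lay above all others, by 0.81 over floxed cells (SE 0.37, limma adjusted p = 0.230) and 0.88 over induced cells (SE 0.37, limma adjusted p = 0.192). Without floxed array 3 the limma difference between null and floxed cells was 1.14 and passed (adjusted p = 0.0478). With normexp correction the differences were 0.23 over floxed and 0.18 over induced cells, and with the deposited matrix 0.27 and 0.18.

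Fosb showed no separation of groups. The signal was -2.51, -3.12 and -2.50 in floxed, -3.04, -2.57 and -2.18 in induced and -2.26, -2.95 and -2.32 in null arrays. Every group spanned more than the distance between any pair of group means, which were -2.71 ± 0.35 (SD, n = 3), -2.60 ± 0.43 (n = 3) and -2.51 ± 0.38 (n = 3). The difference between null and floxed cells was 0.20 (95% confidence interval -0.42 to 0.81, limma adjusted p = 0.694).

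The Jun proteins form AP-1 among themselves or with Fos partners, Jun being the strong activator, Junb often its antagonist, and Jund a broadly expressed form that depends little on stimulation. Jun measured 1.41, 1.71 and 1.83 in floxed, 1.39, 1.30 and 1.42 in induced and 1.30, 1.58 and 1.55 in null arrays. Floxed arrays held the highest values and overlapped with both other groups. The difference from floxed cells was -0.28 in induced cells (95% confidence interval -0.58 to 0.02, limma adjusted p = 0.875) and -0.17 in null cells (95% confidence interval -0.47 to 0.12, limma adjusted p = 0.451).

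Jund had overlapping values throughout, 4.51, 4.71 and 4.65 in floxed, 4.80, 4.49 and 4.65 in induced and 4.67, 4.83 and 4.56 in null arrays. Its difference between null and floxed cells was 0.06 (95% confidence interval -0.20 to 0.33, limma adjusted p = 0.781), the interval excluding a rise of the size seen in Ier3. Junb measured -1.86, -2.17 and -2.59 in floxed, -2.23, -2.44 and -2.23 in induced and -1.65, -1.75 and -2.36 in null arrays. As for Ier2, its lowest array in the floxed and in the null group was the one on slide 2. Null cells differed from floxed cells by 0.29 (95% confidence interval -0.22 to 0.79, limma adjusted p = 0.463) and from induced cells by 0.38 (limma adjusted p = 0.332). With slide as a fixed block the limma difference between null and induced cells was 0.60 and passed (adjusted p = 0.0221). Leaving out both arrays of slide 2, an alternative chosen after seeing the data, gave identical values. For these groups the fixed block already leaves slide 2 without weight, so this is the same result and not a further one.

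**Figure D3:**
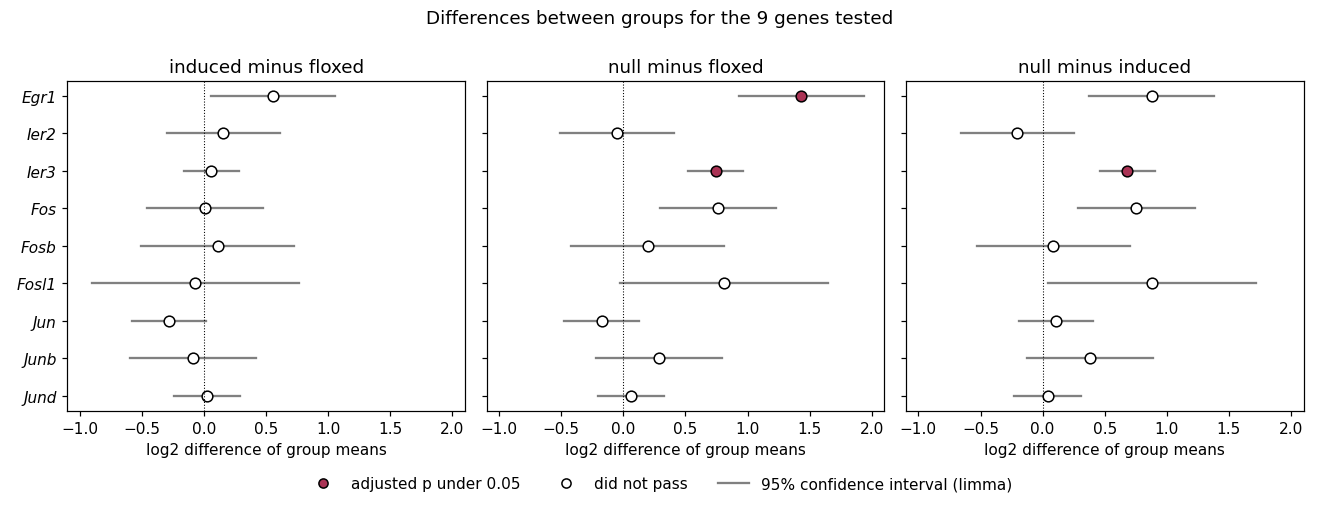
Log2 difference of group means (horizontal axis) for the 9 genes tested, in 3 panels for induced minus floxed, null minus floxed and null minus induced cells, with 95% confidence intervals from limma and filled points where the adjusted p was under 0.05. Egr1 (1.43) and Ier3 (0.74) pass in null against floxed cells, Ier3 (0.68) in null against induced cells, and none in induced against floxed cells.

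Read as a set, 2 of the 9 tested genes rose in null against floxed cells by limma at an adjusted p under 0.05, Egr1 and Ier3, and none fell. The background in that comparison was 1.84% of the 19913 genes tested, 0.758% higher and 1.08% lower. Values of the groups did not overlap for 4 genes, all higher in null cells (Egr1, Ier3, Fos and Fosl1), while groups did not overlap for 23.6% of all genes, and for 12.3% of all genes with null cells higher. The median difference of the 9 genes was 0.29 against 0.01 over all genes. This count includes Fosl1, which was kept through its null arrays, and is no count over all 10 genes.

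Against induced cells 1 of the 9 rose by limma, Ier3, and none fell, with a background of 2.21% called, 0.668% higher and 1.54% lower. The same 4 genes did not overlap, all higher in null cells, beside 37.1% of all genes and 18.7% of all genes as higher. The median difference of the 9 genes was 0.38 against 0.02 over all genes. Here too the count and the median include Fosl1, which was kept through its null arrays. These comparisons share the null arrays, so their values are not independent of each other.

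Between induced and floxed cells limma called 0 of the 9 genes, and 0 had groups that did not overlap. The background was 0.00502% called (1 gene) and 12.8% without overlap. At an unadjusted p under 0.05 limma held 1 of the 9, Egr1, and 1173 genes in all. The median difference was 0.02 for the 9 genes and 0.0030 for all genes.

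Differences between slides within a group were as large as those between groups for several of the 9 tested genes. Floxed array 3 exceeded the mean of floxed arrays 1 and 2 for 7 of them, led by Fosl1 (0.99), Egr1 (0.85) and Fos (0.77), and was below it for Junb (-0.57) and Ier2 (-0.64). The probes of Fosl1 and Fos were not well above background on floxed arrays 1 and 2, so their sizes there are those of dim signals. In the null group the array on slide 2 was lower than arrays 1 and 2 for Junb (-0.66), Ier2 (-0.47) and Egr1 (-0.29), and within 0.0045 of them for Fos. Junb and Ier2 were thus lower on slide 2 in both groups, whereas Egr1 was higher on it in the floxed and lower in the null group. Whether slide, scan or culture set floxed array 3 apart was not tested.

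Within slide 2, with 1 array a group and no test, the null array was higher for 7 of the 9 genes, and lower for Jun (-0.28) and Jund (-0.09). The median of the 9 was 0.18, against 0.01 over all genes. Within slide 3 the mean of the null arrays was higher for 7 of 9, with a median of 0.60 against -0.0031 over all genes. Null and induced arrays of that slide did not overlap for 5 of the 9, Egr1 (0.97), Fosl1 (0.92), Fos (0.75), Ier3 (0.70) and Junb (0.60), all higher in null arrays. Fosl1, which was kept through its null arrays, is in this count and in the median. Over all genes 48.8% did not overlap in this split of 2 against 3 arrays, and 24.1% of all genes were higher in null arrays without overlap.

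**Figure D4:**
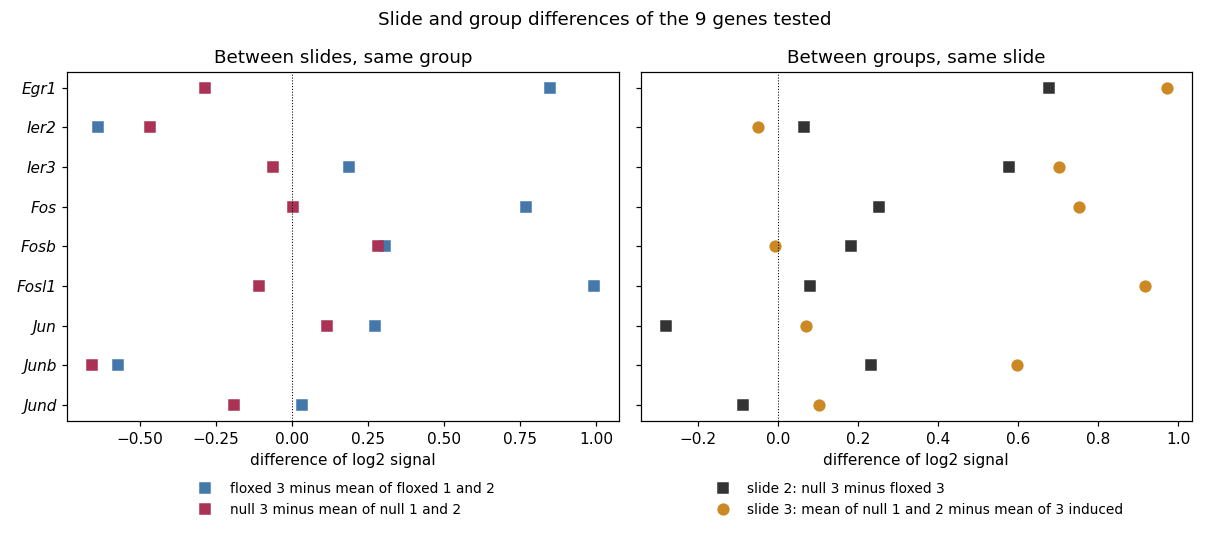
Left, difference in log2 signal between slides within a group (floxed 3 minus the mean of floxed 1 and 2; null 3 minus the mean of null 1 and 2); right, difference between groups within a slide, for the 9 genes tested, on horizontal axes in log2 units. Egr1 and Ier3 are higher in null arrays within both slides (0.68 and 0.97; 0.58 and 0.70), while Ier2 and Junb are lower on slide 2 in both groups.

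Profiles over the 9 arrays, each centred on its mean, were compared by their root mean square difference, on the log2 scale. As a description, Fos lay nearer to Ier3 (0.19) than to Egr1 (0.34), Fosb (0.46) or Jun (0.45). Jun was nearest to Jund (0.18), and Egr1 was farther from Ier2 (0.76) than from any other tested gene of the set. Profiles were not scaled, so genes that vary little lie close together. Jund and Jun had the smallest ranges of the set over the 9 arrays (0.34 and 0.54). Over all genes with a plain symbol, the nearest to Egr1 were Myo1g (0.14), Scd1 (0.15) and Idi1 (0.18). Scd1 encodes a fatty acid desaturase and Idi1 an enzyme of isoprenoid synthesis. Null cells exceeded floxed cells by 1.52 for Myo1g, 1.16 for Scd1 and 1.08 for Idi1. These genes were picked for profiles like that of Egr1 (1.43), so such differences follow from the choice and are no separate result. The nearest to Fos were Rdh11 (0.096), Lurap1 (0.10) and Tmem59l (0.10), and the nearest to Jun were Dynll2 (0.090), Tymp (0.096) and Fam219a (0.096). All points come from the same 9 arrays, and likeness says nothing of shared control.

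The relatives of these genes were taken as lists. Of 15 further AP-1 and Egr relatives, partners and repressors 14 were tested. In null against floxed cells 1 rose and 2 fell by limma, with 11 not passing and a median difference of 0.10. Over all genes 0.758% were called higher and 1.08% lower. At an unadjusted limma p under 0.05, in either direction, stood 7 of the 14 against floxed and 7 against induced cells. Over all genes 22.9% and 23.8% had such a p. Atf3, a stress-induced repressor that pairs with Jun, lay between -1.82 and -1.27 in floxed, -1.91 and -1.50 in induced and -3.79 and -2.88 in null arrays, the null signal being well above background on 1 of 3. It fell by 1.92 against floxed cells (limma adjusted p = 0.00771). Against induced cells, where 1.54% of all genes were called lower, it fell by 1.64 (limma adjusted p = 0.0184), the one call of the list there. These sizes rest on null signals near background, and over the alternative settings Atf3 differed by -2.18 to -0.85 and by -1.89 to -0.66. Fosl2, the remaining Fos protein, fell by 1.48 against floxed cells (limma adjusted p = 0.0417), with a null signal above background on 2 of 3 arrays. Over those settings that difference ran from -1.83 to -0.61, and a second, dimmer Fosl2 probe that was not kept differed by -0.35. Maff, a small Maf protein, rose by 0.67 (limma adjusted p = 0.0394).

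Of 23 other immediate early genes 21 were tested. In null cells 11 differed from floxed and 12 from induced cells at an unadjusted limma p under 0.05, in either direction. The shares of all genes were 22.9% and 23.8%. In null against floxed cells limma called 0.758% of all genes higher and 1.08% lower. Of this list 0 rose and 2 fell, with a median of 0.07. They were Ccn1 (Cyr61), which encodes a matrix protein and is a target of serum response factor and Yap (-0.57, limma adjusted p = 0.0451), and the kinase gene Plk2 (-0.60, limma adjusted p = 0.0165). Their null arrays were close together, Ccn1 between -0.01 and 0.01 and Plk2 between -1.23 and -1.15, below all floxed arrays. In null against induced cells 1 rose and 0 fell, with a median of 0.13. Over all genes 0.668% were called higher and 1.54% lower in that comparison. The gene that rose was Arc, best known as a synaptic gene of active neurons, which exceeded induced cells by 0.59 (limma adjusted p = 0.0434). All 21 upstream kinases and factors of the list, among them Raf, Mek, Erk and p38 kinases, Srf and Elk1, were tested and limma called 0 in any comparison, with 4 at an unadjusted p under 0.05 against floxed and 8 against induced cells. Over all genes 22.9% and 23.8% had such a p in these comparisons. Their median differences were 0.10 against floxed and 0.10 against induced cells.

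Downstream, 8 of 12 AP-1 target genes were tested. In null cells 2 of the 8 differed from floxed and 4 from induced cells at an unadjusted limma p under 0.05. Over all genes 22.9% and 23.8% did so. By limma 1 passed in each comparison, as a rise, where 0.758% and 0.668% of all genes were called higher. That gene was Ccnd1, which encodes cyclin D1. It lay between 1.75 and 2.45 in floxed, 1.93 and 2.13 in induced and 2.79 and 3.06 in null arrays, a rise of 0.95 over floxed (limma adjusted p = 0.0408) and 0.92 over induced cells (limma adjusted p = 0.0437), while the median of the list was -0.13 and -0.28. Heat shock genes can respond to handling, as immediate early genes can, and an effect of handling was not tested. Of 8 such genes 7 were on the array, and all 7 were tested. Hsph1 rose by 0.58 over floxed (limma adjusted p = 0.0201) and 0.65 over induced cells (limma adjusted p = 0.0123), and the other 6 did not pass. At an unadjusted limma p under 0.05 stood 1 of the 7 in each of these comparisons. The shares of all genes are those given for the AP-1 targets. In induced against floxed cells limma called 0 genes in each of these 5 lists, with medians between -0.13 and 0.07 and 0 to 3 genes a list at an unadjusted p under 0.05, which 5.89% of all genes had. Under the 20 or 21 alternative settings each of these named list genes kept its direction, but several calls against floxed cells were lost in most of them: Maff, Fosl2 and Ccnd1 passed in 8 each, Ccn1 in 9 and Hsph1 in 10. Plk2 passed in 13 of 21 and Atf3 in 18 of 20, and against induced cells Arc passed in 11, Ccnd1 in 12, Hsph1 in 16 and Atf3 in 15.

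**Figure D5:**
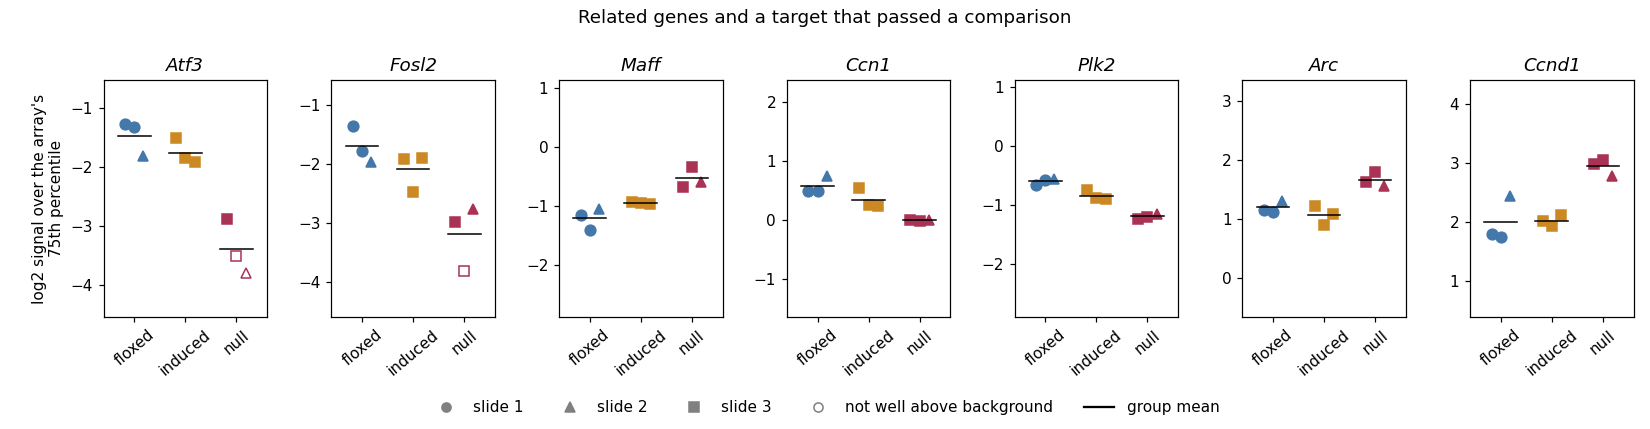
Log2 signal relative to the array's 75th percentile (vertical axis) on each array for the AP-1 relatives Atf3, Fosl2 and Maff, the immediate early genes Ccn1, Plk2 and Arc and the AP-1 target Ccnd1, by group, with group means as lines, slides as marker shapes and open markers for spots not well above background. Null arrays lie below all floxed arrays for Atf3, Fosl2, Ccn1 and Plk2 and above them for Maff, Arc and Ccnd1.

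Lists of markers of other cell types were read in the same way. Of 13 fibroblast markers 7 were tested and 6 fell in null cells by limma, against both floxed and induced cells. Over all genes 1.08% and 1.54% were called lower. The remaining marker, Thy1, lay higher in null cells, by 1.37 and 1.34, and did not pass (limma adjusted p = 0.103 in both). Col3a1 and Twist2 were above background on 0 null arrays, so they entered the test through the groups where they were high. The signal of the 7 tested markers was summed in units of the array's 75th percentile. The sum was 30.0 to 36.8 in floxed, 20.2 to 27.9 in induced and 8.81 to 10.6 in null arrays. Bright probes such as Tagln (mean 4.70 in floxed cells) weigh most in it. The median log2 signal of these markers was -0.42 to -0.39 in floxed, -0.21 to 0.01 in induced and -2.16 to -1.41 in null arrays. In induced against floxed cells limma called 0 of the 7, and 2 had an unadjusted p under 0.05. Over all genes these shares were 0.00502% and 5.89%. The defining markers Lum, Pdgfra, Pdgfrb, Postn and Fap were above background on 0 of 9 arrays and Dcn on 1. Of 9 epithelial and trophectoderm markers, all tested, 7 fell against floxed and 5 against induced cells by limma. Their sums were 90.6 to 112 in floxed, 65.9 to 91.4 in induced and 43.0 to 47.5 in null arrays. Their medians were 0.89 to 1.32, 0.74 to 1.16 and 0.44 to 0.62 in the same order. In induced against floxed cells limma called 0 of the 9, and 3 had an unadjusted p under 0.05. Epcam and Cdh1 lay slightly higher in null cells in both comparisons and did not pass. Cdx2 was above background on 0 null arrays. Of 8 blood and endothelium markers 7 were tested and limma called 0, with 5 of 7 at an unadjusted p under 0.05 in each comparison of null cells, beside the 22.9% and 23.8% of all genes. Fewer cells of a type and less RNA per cell cannot be told apart in these bulk samples. Whether any such cells were present, and their part in the levels of the immediate early genes, was not tested.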

How the data were processed

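Cy3-labelled cRNA of each sample was read on 1 Agilent 1-colour array. Per the file headers, Feature Extraction 10.7.3.1 wrote the deposited linear intensity of every spot: a background-subtracted processed signal with no scaling between arrays, the mean signal and local background; other deposited columns are spot flags. Probe positions are those of mm9, per the file headers; mm9 exons were not analysed here. Each gene of the set had 1 probe: Fos (chr12:86817900-86817959, plus strand), Fosb (chr7:19888168-19888227, minus), Fosl1 (chr19:5455496-5455555, plus), Jun (chr4:94716928-94716987, minus), Junb (chr8:87501881-87501940, minus), Jund (chr8:73224436-73224495, plus), Egr1 (chr18:35024395-35024454, plus), Egr2 (chr10:67004798-67004857, plus), Ier2 (chr8:87186214-87186273, minus) and Ier3 (chr17:35959528-35959587, plus).

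Groups came from the labels. Control spots and 148 to 188 outlier spots per array were left out and spots of a probe averaged. Log2 processed signals were shifted so that the 75th percentile of each array (345 to 468) became 0. Of 55681 probes, 27536 were kept, those detected well above background throughout 1 group or more. Each gene took its brightest kept probe, which gave 19913 genes. RefSeq accessions renamed 27235 probes.

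In R 4.3.3, limma 3.58.1 (lmFit, eBayes) fitted 3 group means over 9 arrays, using two-sided moderated tests with p adjusted by Benjamini-Hochberg across every gene tested and called under 0.05. The array number limits the precision. Genes and lists were chosen with earlier results of these data known. Named were all genes of the set, list members past the threshold (at most 4 each way), Xpc, and the 3 nearest profiles to Egr1, Fos and Jun. On simulated data of 19913 genes, 64% to 69% of genes given a log2 change of 1, and 92% to 98% of those given 2, were recovered. The simulated noise was independent between arrays and genes, with no slide effect and no array set apart. These shares are therefore not the power of the comparisons made here. Alternatives covered scaling, background, the filter, probe choice, slide, pairing and arrays left out.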

Additional observations from a re-analysis of the deposited data

How the results depend on the processing

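With 3 arrays a group, 1 per sample, and floxed array 3 apart from its group, the counts of calls depended on the model and the arrays. Main counts were 1, 367 and 440 genes and 0, 2 and 1 of the immediate early genes, for induced against floxed, null against floxed and null against induced cells, here and below in this order (comparisons 1, 2 and 3). Of 558 values of single immediate early genes under alternatives, 478 kept direction and side of the threshold, 20 lost a call, 19 gained one and 41 changed sign. Egr1 passed in null against floxed cells in 13 of 21 settings (0.68 to 1.81, adjusted p 0.000178 to 0.217) and Ier3 in 15 of 21 (0.58 to 0.83, adjusted p 0.000904 to 0.222), with no change of sign.

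Quantile normalization, normexp, the deposited matrix, no filter on dim probes, detection on all 9 arrays and slide as a random block each gave 0 genes in comparison 1. Normexp gave 560 genes in comparison 2 and 2 early genes in comparison 3, and the deposited matrix also gave 2. Without a filter on dim probes, more genes were tested and comparisons 2 and 3 held 73 and 63 genes and 0 early genes each. In that setting 13.7% of the 73 calls were higher, against 41.1% in the main one. Slide as a fixed block gave 170, 50 and 3228 genes and 0 early genes in comparison 2 and 4 in comparison 3. In that fit comparison 2 rests on the single pair of slide 2 and comparison 3 on slide 3. No slide held both groups of comparison 1. As a random block slide gave 104 and 1782 genes and 1 and 3 early genes in comparisons 2 and 3. Fitting only the groups compared gave 81 and 2771 genes and 0 and 3 early genes in comparisons 2 and 3. Leaving out both slide 2 arrays, chosen after seeing the data, gave 126, 4991 and 3228 genes and 1 and 4 early genes in comparisons 1 and 3. In comparison 3 this is the same result as slide as a fixed block. Leaving out arrays gave 0 to 151, 79 to 4991 and 61 to 3623 genes and 0 to 1, 0 to 4 and 0 to 4 early genes; the highest single-array counts came without floxed array 3 (151, 4952 and 3623 genes; 1, 4 and 3 early genes). The cause of these shifts was not tested.

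Replicate numbers showed no sign of pairing the samples. With group means removed, same-numbered arrays of different groups correlated between -0.106 and 0.0873. Differently numbered arrays gave -0.119 to 0.0971, so these values do not establish that no pairing exists. With the replicate block 161 and 189 genes were called in comparisons 2 and 3, and the counts of early genes were unchanged.

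Signs that changed were of differences that did not pass under the setting that changed them. For induced against floxed cells they were Fos (-0.039 with normexp, -0.022 in the matrix, -0.50 and -0.17 with slide fixed and random, -0.15 to 0.26 over left-out arrays), Fosb (-0.043 in the matrix, -0.098 to 0.33 over left-out arrays), Fosl1 (0.056 with normexp, 0.097 in the matrix, 0.26 without slide 2, -0.41 to 0.28 over left-out arrays) and Junb (-0.28 to 0.083 over left-out arrays). In the same comparison they were Jund (-0.19 and -0.071 with slide fixed and random, -0.0552 to 0.10 over left-out arrays), Egr1 (-0.29 with slide fixed), Ier3 (-0.13 and -0.010 with slide fixed and random, -0.0030 to 0.12 over left-out arrays) and Ier2 (-0.058 without slide 2, -0.058 to 0.28 over left-out arrays). For null against floxed cells they were Jund (-0.086 with slide fixed, -0.00850 to 0.13 over left-out arrays), Ier2 (0.064 with slide fixed, -0.26 to 0.10 over left-out arrays) and Fosb (-0.0065 to 0.42 over left-out arrays). For null against induced cells they were Jund (-0.020 with quantile, -0.041 to 0.12 over left-out arrays) and Fosb (-0.0074 with slide fixed and without slide 2, -0.13 to 0.31 over left-out arrays). Signal near background limits Fos, Fosl1, Fosb and Egr2.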
